A study of Mus musculus with 3 samples.

Results

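CpG methylation in P7 spermatogonia was examined in the bodies of genes that were silent or nearly silent in the newborn testis. A gene was taken as silent when its WT expression at P0 in the study's gene table was under 0.1 RPKM (reads per kilobase of transcript, scaled to depth), it lay on an autosome and it was at least 5 kb long. The body ran from 3 kb past the start to the end of the gene, and the flank was the sequence within 50 kb on each side that lies in no annotated gene. Of the 1414 autosomal genes of at least 5 kb that could be used, 557 were silent by this rule, and 351 of these had an RPKM of 0. At least 10 calls in each library were found in the body of 541 of them, and in both body and flank of 507. The annotation lists 410 of the 557 as lncRNA (long noncoding RNA) genes, 144 as protein-coding and 3 as transcribed pseudogenes. The gene table as read breaks off early in the alphabet, so that RIKEN cDNA names dominate and no symbol after *Adra2a* is included. Its RPKM values come from whole P0 testes, in which prospermatogonia are the only germ cells but somatic cells are present as well, so that silence here is silence in the testis as a whole.

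Methylation was measured by whole-genome bisulfite sequencing of spermatogonia sorted with an anti-EpCAM antibody from C57BL6/J mice at postnatal day 7, in 1 WT, 1 *Pld6* KO and 1 *Dnmt3l* KO library. Both mutant lines are constitutive knockouts on the C57BL/6J background, and the study's WT category also included heterozygous mice. Levels are the share of methylated among all calls of a region, as a fraction with a 95% Wilson interval in parentheses. With 1 library per genotype, the spread between animals is unknown, and genotype and library cannot be told apart. Fisher's exact tests (two-sided) on calls therefore compare regions or libraries, and their p-values treat linked calls of the same read as independent.

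After the erasure of methylation in primordial germ cells, prospermatogonia methylate most of their genome anew. DNMT3A does this with DNMT3L, a catalytically inactive cofactor, while PLD6 is a mitochondrial nuclease needed to make piRNAs, the small RNAs that direct methylation to young L1 promoters. In many mammalian cell types, transcription through a gene goes with histone H3 lysine 36 methylation and a highly methylated body, whereas CpG islands at gene starts stay unmethylated.

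The kinds of sequence that recur in the results are shown by 5 stretches of silent bodies, read on the + strand of the RefSeq sequence of GRCm38 with every CG, the site that is methylated, in capitals. They were chosen as the stretches with the most calls in the library that covered them least (for L1Md_A, the lesser of WT and *Pld6* KO), except that of *4930452N14Rik*, which was chosen for its difference between WT and *Pld6* KO. The stretch of *2610100L16Rik* shows a CpG-dense body without methylation, that of *3200001D21Rik* a body that kept methylation in *Dnmt3l* KO, that of *Adam2* a CpG cluster methylated in WT and not in *Dnmt3l* KO, and the last 2 show L1Md_A sequence.
2610100L16Rik, chr3:17794641-17794940: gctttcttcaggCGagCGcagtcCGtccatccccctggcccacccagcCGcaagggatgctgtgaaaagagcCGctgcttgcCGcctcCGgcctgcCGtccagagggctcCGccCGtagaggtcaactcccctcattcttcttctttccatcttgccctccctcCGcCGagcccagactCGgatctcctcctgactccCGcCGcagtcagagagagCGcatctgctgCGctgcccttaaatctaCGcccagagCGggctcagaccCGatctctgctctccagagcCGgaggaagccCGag
3200001D21Rik, chr12:88368434-88368733: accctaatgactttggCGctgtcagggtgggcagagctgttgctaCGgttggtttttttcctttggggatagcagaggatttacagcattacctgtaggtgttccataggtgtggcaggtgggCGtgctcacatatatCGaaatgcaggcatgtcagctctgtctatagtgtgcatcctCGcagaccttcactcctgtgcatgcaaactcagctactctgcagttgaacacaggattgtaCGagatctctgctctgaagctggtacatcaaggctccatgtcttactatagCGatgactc
Adam2, chr14:66053609-66053908: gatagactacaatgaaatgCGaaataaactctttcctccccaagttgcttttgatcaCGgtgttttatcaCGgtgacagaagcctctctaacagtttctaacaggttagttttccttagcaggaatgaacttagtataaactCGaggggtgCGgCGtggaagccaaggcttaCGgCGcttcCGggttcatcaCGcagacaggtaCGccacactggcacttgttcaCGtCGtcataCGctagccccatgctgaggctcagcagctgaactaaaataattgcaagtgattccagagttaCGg
4930452N14Rik, chr1:154243021-154243320: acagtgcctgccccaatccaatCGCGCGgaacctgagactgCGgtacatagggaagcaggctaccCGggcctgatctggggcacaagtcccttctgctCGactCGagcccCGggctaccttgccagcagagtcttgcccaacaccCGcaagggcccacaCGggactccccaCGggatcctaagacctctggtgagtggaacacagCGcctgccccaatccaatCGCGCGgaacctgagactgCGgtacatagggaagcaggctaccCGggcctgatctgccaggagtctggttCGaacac
4930548K13Rik, chr4:26663314-26663530: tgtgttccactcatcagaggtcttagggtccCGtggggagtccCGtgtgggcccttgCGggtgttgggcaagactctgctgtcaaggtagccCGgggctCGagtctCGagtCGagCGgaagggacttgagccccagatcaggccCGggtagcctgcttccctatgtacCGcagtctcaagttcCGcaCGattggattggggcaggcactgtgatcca

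In the stretch of *2610100L16Rik*, with 22 CGs, the level was 0 over 47 calls in WT, 0.0141 over 71 in *Pld6* KO and 0 over 25 in *Dnmt3l* KO. In that of *3200001D21Rik*, with 7 CGs, the levels were 0.870, 0.844 and 0.684 over 23, 32 and 19 calls. The *Adam2* stretch, with 15 CGs, had levels of 0.917, 0.744 and 0 over 24, 39 and 27 calls, so that the WT and *Dnmt3l* KO libraries stood far apart there. At *4930452N14Rik*, 18 CGs gave 0.962 in WT and 0 in *Pld6* KO over 26 and 21 calls, and 0 of 6 in *Dnmt3l* KO. The L1Md_A match in *4930548K13Rik*, with 12 CGs, gave 1 in WT and 0.194 in *Pld6* KO over 22 and 31 calls, and had no calls in *Dnmt3l* KO. A CG occurs in 80% of all 300-base windows of the silent bodies.

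The libraries held 19289688 (*Dnmt3l* KO) to 64076569 (*Pld6* KO) calls, and the pooled autosomal level was 0.704 in WT, 0.724 in *Pld6* KO but 0.303 in *Dnmt3l* KO. Calls were absent from exon 1 of *Pld6* in *Pld6* KO, where the other libraries had 90 and 40. In *Dnmt3l*, the longest run without calls in *Dnmt3l* KO, chosen for that, held 88 and 171 calls in the other libraries. Maternally methylated imprinted starts, which are unmethylated in male germ cells and partly methylated in somatic cells, had levels of 0.078, 0.070 and 0.0154 at *Kcnq1ot1* and 0.0726, 0.0377 and 0 at *Peg3* in WT, *Pld6* KO and *Dnmt3l* KO. *Mest* had 0.02, 0.122 and 0. *Snrpn* lay above these starts, but on few calls, with 1 over 2 calls in WT and 0.571 (0.2505 to 0.842) over 7 in *Pld6* KO. It had no calls in *Dnmt3l* KO.

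Silent bodies were highly methylated in WT and *Pld6* KO and carried far less in *Dnmt3l* KO. The pooled level was 0.792 (0.791 to 0.794) in WT, 0.801 (0.799 to 0.802) in *Pld6* KO but 0.297 (0.2945 to 0.3) in *Dnmt3l* KO. Over the 541 genes, the lowest, median and highest body levels were 0.0415, 0.841 and 1 for WT. They were 0.0812, 0.841 and 0.954 for *Pld6* KO, and 0, 0.293 and 0.8 for *Dnmt3l* KO. The SD over genes was 0.144, 0.128 and 0.137, while counting error alone would give 0.0322, 0.0266 and 0.0545. Silent bodies thus differed among themselves by more than their counting error in all 3 libraries.

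The body was only slightly more methylated than the flank. The pooled flank levels were 0.741 in WT, 0.755 in *Pld6* KO but 0.278 in *Dnmt3l* KO, and the median difference of body minus flank over 507 genes was 0.0546, 0.0474 and 0.0271. The same medians over all 1332 genes of the table were 0.0995, 0.0883 and 0.0839, and over the 520 genes expressed at an RPKM of 1 or more they were 0.175, 0.146 and 0.198. A body was called higher or lower than its flank when Fisher's exact test gave an adjusted p under 0.05 (Benjamini-Hochberg over all genes of the table) and the levels differed by at least 0.1. By this rule 165 of 507 silent bodies were higher than the flank in WT (49.2% of all genes tested), 148 in *Pld6* KO (45.6%), compared with 87 in *Dnmt3l* KO (39.9%). The median number of calls per silent body was 250, 370 and 117, so that a difference of a given size was hardest to call in *Dnmt3l* KO. Lower than the flank were 66 in WT (10.2% of all genes), 65 in *Pld6* KO (9.76%) but 40 in *Dnmt3l* KO (6.61%). The higher bodies were thus 32.5%, 29.2% and 17.2% of the silent genes, below the share over all genes in each library, and the lower ones 13%, 12.8% and 7.89%, somewhat above it. By any amount and with no test, 350 silent bodies lay above the flank in WT (77.1% of all genes), 352 in *Pld6* KO (77.1%) but 313 in *Dnmt3l* KO (72.7%).

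**Figure D1:**
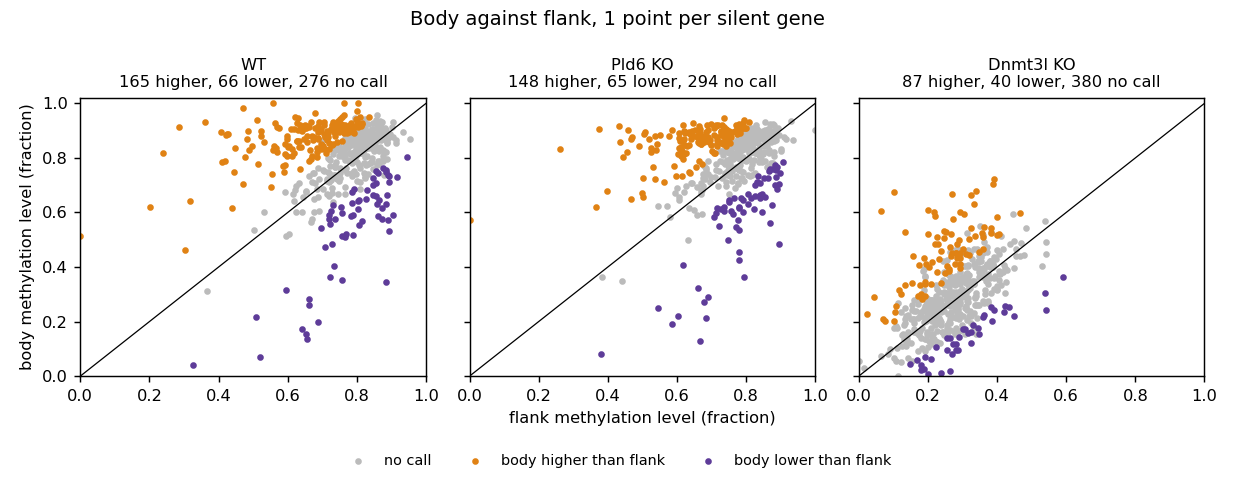
Body level (vertical axis, fraction) against flank level (horizontal axis, fraction) of the 507 silent genes, 1 point per gene, in the WT, *Pld6* KO and *Dnmt3l* KO libraries; the line marks equal levels and colours mark genes whose body was called higher or lower than the flank. In WT and *Pld6* KO most points lie at body levels of about 0.8 at most flank levels, and in *Dnmt3l* KO the points spread along the line, with 87 called above and 40 below it.

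These differences depended on what the flank holds. When the 5 kb around every annotated gene were also taken out of the flank, the median difference of 470 silent genes was 0.0179 in WT, 0.0182 in *Pld6* KO, with 0.0129 in *Dnmt3l* KO, and 105, 92 and 59 bodies were called higher. These were 22.3%, 19.6% and 12.6% of the silent genes, against 26.2%, 24.3% and 29.3% over all genes, so that in WT and *Pld6* KO the silent share lay close to the background. For expressed genes the medians were then 0.0567, 0.0552 and 0.144. The body level followed that of its surroundings most closely in *Dnmt3l* KO: Spearman's rho between body and flank over the silent genes was 0.120 in WT, 0.170 in *Pld6* KO but 0.520 in *Dnmt3l* KO, which describes genes that share the libraries and, in part, their base composition.

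The sets called in the 3 libraries overlapped in part, and the same overlap over all genes was not computed. Of the 87 bodies called higher than the flank in *Dnmt3l* KO, 63 were also among the 165 called higher in WT and 57 among the 148 in *Pld6* KO, and 53 were called higher in all 3. Of the 40 called lower in *Dnmt3l* KO, 26 were lower in WT and 26 in *Pld6* KO, and 24 were lower in all 3. The 24 had a median of 12.6 CpG sites per kb, against 8.22 over all 507 silent genes, and median levels of 0.543, 0.620 and 0.141. The 53 had median levels of 0.897, 0.883 and 0.450, and their flanks 0.640, 0.671 and 0.221. No call in any library was made for 208 genes, whose median body and flank levels were 0.831 and 0.809 in WT and 0.291 and 0.288 in *Dnmt3l* KO.

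Placed among the genes of the table by expression at P0, silent bodies lay at the low end in every library, and the step was largest in *Dnmt3l* KO. There the pooled body level was 0.280 at an RPKM of 0, 0.314 above 0 and under 0.1, 0.347 from 0.1 to 1, 0.426 from 1 to 10 and 0.495 at 10 and above. The flanks of these classes had 0.270, 0.292, 0.283, 0.274 and 0.266. In WT the same body classes had 0.782, 0.802, 0.807, 0.845 and 0.869, and in *Pld6* KO 0.794, 0.808, 0.813, 0.846 and 0.864. The Wilson intervals of the body levels did not overlap between the classes in *Dnmt3l* KO. Just inside the limit, 100 genes with an RPKM from 0.05 to 0.1 had a median body level of 0.337 in *Dnmt3l* KO, and 99 genes from 0.1 to 0.2 just outside it had 0.320. The level thus showed no step at the limit itself.

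**Figure D2:**
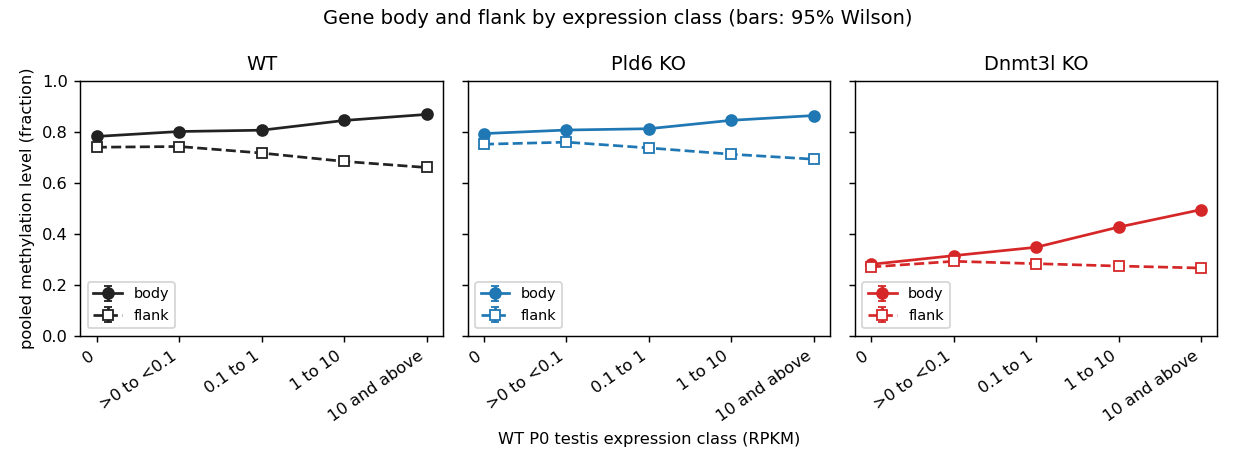
Pooled methylation level (fraction, with 95% Wilson intervals, smaller than most symbols) of gene bodies (filled circles) and flanks (open squares) in 5 classes of WT P0 testis expression (RPKM) in each library. In *Dnmt3l* KO the body level goes from 0.280 in genes with an RPKM of 0 to 0.495 at 10 and above, while the flanks stay between 0.266 and 0.292.

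The level in *Dnmt3l* KO was at least 0.5 in 49 of 541 silent bodies (9.06%) and in 227 of 523 expressed ones (43.4%), and under 0.1 in 27 silent bodies (4.99%) and 8 expressed ones (1.53%). In WT, 347 silent bodies (64.1%) and 444 expressed ones (84.9%) had a level of at least 0.8. Every silent body had a lower level in *Dnmt3l* KO than in WT (541 of 541, 100% over all genes as well), with a median decrease of 0.489 against 0.388 in expressed genes. By Fisher's exact test with a decrease of at least 0.3, 505 silent bodies were called lower in the *Dnmt3l* KO library than in WT (87.7% over all genes), and 533 passed the test at any size of decrease (98.4%). Of the 36 not called lower by at least 0.3, 18 had a WT level under 0.5, and 17 had at least 0.5 in WT and a decrease under 0.3, with medians of 0.870 in WT and 0.608 in *Dnmt3l* KO.

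Around the start of the gene, silent genes had a shallower dip than expressed ones. In the first 1 kb the pooled level of silent genes was 0.399 in WT, 0.455 in *Pld6* KO but 0.161 in *Dnmt3l* KO, and that of expressed genes, which had 44.6 CpG sites per kb there against 14.1 in silent ones, was 0.0440, 0.0538 and 0.0195. From 2 to 4 kb past the start the silent level was back at 0.763, 0.778 and 0.315, against 0.799, 0.807 and 0.426 in expressed genes. At the end of silent genes the level hardly changed: the last 2 kb had 0.758, 0.780 and 0.301, and the 2 kb beyond it 0.763, 0.783 and 0.308. In expressed genes the *Dnmt3l* KO level passed from 0.403 in the last 2 kb to 0.354 in the 2 kb beyond and 0.310 in the next.

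**Figure D3:**
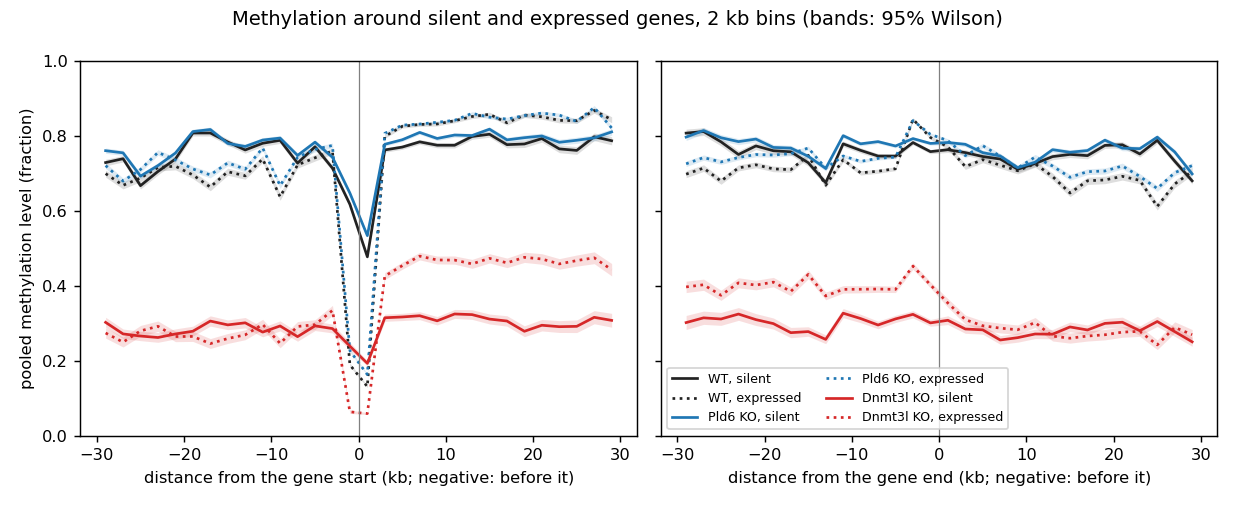
Pooled methylation level (fraction) in 2 kb bins of distance (kb) from the start and from the end of silent (solid lines) and expressed genes (dotted lines) in the 3 libraries, with 95% Wilson bands; bins outside the gene hold sequence outside annotated genes. In *Dnmt3l* KO the silent line stays near 0.3 on both sides of the gene end, and the expressed line lies above it inside the gene.

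Base composition went with the level that silent bodies kept in *Dnmt3l* KO. In bodies with a G+C content under 38% (52 genes) the pooled level was 0.733 in WT, 0.732 in *Pld6* KO but 0.173 (0.166 to 0.181) in *Dnmt3l* KO, and in bodies of 48% and above (55 genes) it was 0.758, 0.781 and 0.358 (0.347 to 0.368). The flanks of the same genes went from 0.172 to 0.330 in *Dnmt3l* KO. Spearman's rho between G+C content and body level was 0.041 in WT, 0.117 in *Pld6* KO but 0.426 in *Dnmt3l* KO over 541 genes of the same libraries. Expressed genes had a median G+C content of 44.4% against 42.7% in silent ones. Within every G+C class the silent level was below the expressed one in *Dnmt3l* KO, 0.173 against 0.376 under 38% and 0.358 against 0.495 at 48% and above. The classes are open at both ends, and CpG density was not matched, with medians of 8.21 sites per kb in silent and 10.2 in expressed bodies. The part of base composition in the difference was not tested.

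**Figure D4:**
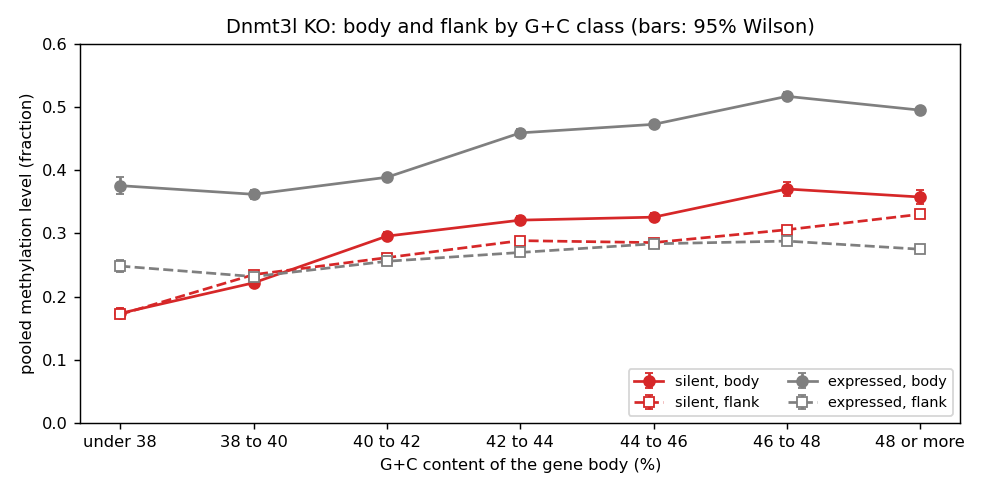
Pooled methylation level (fraction, with 95% Wilson intervals) of bodies (filled circles) and flanks (open squares) of silent (red) and expressed genes (grey) in *Dnmt3l* KO, by G+C content of the body (%). Silent bodies lie from 0.173 to 0.370, close to the flanks, and expressed bodies from 0.362 to 0.517.

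Within silent bodies, exons of the gene had levels of 0.736, 0.767 and 0.287 in WT, *Pld6* KO and *Dnmt3l* KO, and introns 0.798, 0.804 and 0.298. Sequence masked as repeats had 0.808, 0.766 and 0.257, and unmasked sequence 0.789, 0.807 and 0.305, so that repeats lay above the rest in WT and below it in both mutant libraries. This order was not particular to silent bodies. Their flanks and expressed bodies had it too, with overlapping intervals in *Pld6* KO for the flanks and in *Dnmt3l* KO for expressed bodies. In the flanks of expressed genes, repeats lay above the rest in every library. In *Dnmt3l* KO, stretches of silent bodies that belong to another annotated gene had 0.334 (0.328 to 0.341), and the rest of these bodies 0.288 (0.285 to 0.291). CpG-dense tiles had lower levels than sparse ones in all libraries. Silent tiles of 1 kb with fewer than 15 sites had levels of 0.830 to 0.858 in WT and 0.304 to 0.330 in *Dnmt3l* KO, those with 25 to 39 sites had 0.375 and 0.0800, and the 38 tiles with 40 or more had 0.170 and 0.0161. In expressed bodies the tiles with 25 to 39 sites had 0.711 in WT and 0.355 in *Dnmt3l* KO. Of the 3516 tiles with at least 10 calls in each library, 200 (5.69%), in 123 silent genes, had a WT level under 0.2, against 2.18% of tiles in expressed genes. A level of at least 0.6 in *Dnmt3l* KO was found in 10.9% of silent and 32.7% of expressed tiles.

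Among the 389 silent genes with at least 50 calls in body and flank in each library, 6 were named for the highest level or the largest excess over the flank in *Dnmt3l* KO. Another annotated gene lay in the body of 5 of them. That share was 37.7% over the 507 silent genes and 41.4% over the 87 called higher than the flank in *Dnmt3l* KO, and was not computed over the 389. The body of *3200001D21Rik* (chromosome 12, 88365314 to 88377323, lncRNA) lies wholly within *Adck1*, which encodes a mitochondrial kinase-like protein and was expressed at an RPKM of 1 or more. It had levels of 0.898 (0.838 to 0.937) in WT, 0.889 (0.841 to 0.924) in *Pld6* KO but 0.608 (0.494 to 0.711) in *Dnmt3l* KO, and its flank 0.694, 0.738 and 0.201. The excess over the flank passed Fisher's exact test in all 3 libraries, with an adjusted p of 2.91e-08 in *Dnmt3l* KO. *1700007J10Rik*, a lncRNA gene with its body within *Mprip*, which encodes a binding partner of myosin phosphatase, had 0.917, 0.935 and 0.677 (0.554 to 0.780). This was the highest level in *Dnmt3l* KO among the 389, and its flank had 0.648, 0.930 and 0.340.

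*4930549G23Rik* had 0.901, 0.842 and 0.663 (0.596 to 0.725), and 93% of its body lies in *Seh1l*, a gene for a nuclear pore protein. *Ace3*, a relative of angiotensin-converting enzyme found in the testis, whose body lies wholly within the antisense lncRNA gene *Gm35971*, had 0.870, 0.873 and 0.602 (0.510 to 0.687), with a flank of 0.218 and an adjusted p of 4.49e-13 in *Dnmt3l* KO by Fisher's exact test. *A630023A22Rik*, which shares 48.6% of its body with *Antxrl* and 28.3% with *Anxa8*, had 0.904, 0.895 and 0.596 (0.553 to 0.638). *9830107B12Rik* has no other annotated gene in its body and had 0.888, 0.896 and 0.529 (0.413 to 0.641), against a flank of 0.424, 0.508 and 0.135. All 6 were thus above 0.5 in *Dnmt3l* KO, and their values overlapped within their intervals.

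The annotation puts another gene into the body of 230 of the 557 silent genes, and bisulfite levels cannot be assigned to either of 2 overlapping genes. Genes that the table lists at an RPKM of 1 or more overlapped 4 silent bodies with enough calls. Besides *3200001D21Rik* these were *Acss2os* within *Acss2*, which encodes a cytosolic acetyl-CoA synthetase (0.932 in WT and 0.630 in *Dnmt3l* KO, flank 0.333), *5330439B14Rik* within *Abcc9* (0.910 and 0.381, flank 0.248), and *Acmsd*, of which *2900009J06Rik* covers 39.7% (0.710 and 0.271, flank 0.230). Expression of the other overlapping genes was not used here. The shares of called genes were close with and without an overlap, as 36 of 191 silent genes with another gene in the body were called higher than the flank in *Dnmt3l* KO (18.8%) and 51 of 316 without (16.1%), with median differences of 0.0266 and 0.0273.

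Of the silent bodies with the lowest WT level, 4 are given here. *2610100L16Rik*, the host of *Mir124a-2*, whose mature product miR-124 is abundant in neurons, had 0.0415 (0.0249 to 0.0685) in WT, 0.0812 (0.0578 to 0.113) in *Pld6* KO, with 0.0299 (0.0129 to 0.0682) in *Dnmt3l* KO. *4930488B22Rik* lies 8.15 kb from *Hlx*, a homeobox gene, and had 0.0708, 0.190 and 0.0263. The body of *9230102O04Rik* lies wholly within *Gata3*, which encodes a zinc finger transcription factor of T cells and other lineages, and had 0.136, 0.129 and 0.0106. *4930412O13Rik*, another silent gene, covers the same body. *4930449E01Rik* had 0.172, 0.215 and 0.0096.

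These 4 bodies had 15.6 to 29.2 CpG sites per kb, against a median of 8.22 over the silent genes, and were below their flanks in WT, where the flanks had 0.327 to 0.657. In *Dnmt3l* KO, 3 of them were called lower than the flank, and *2610100L16Rik* was not (0.0299 against 0.0143). Further silent bodies lay well below a methylated flank. *4933407E24Rik*, with its body wholly within *Gm2164*, had 0.344, 0.486 and 0.306, with a flank of 0.885, 0.895 and 0.540. *4930556J02Rik* had 0.351, 0.362 and 0.120, with a flank of 0.756, 0.793 and 0.323. *3425401B19Rik* and *4930540M03Rik*, whose bodies were mostly methylated in WT (0.732 and 0.665), had 0.363 and 0.221 in *Dnmt3l* KO against flanks of 0.591 and 0.448. *Deup1* covers 29.9% of the body of *4930540M03Rik*, so that overlaps with other genes occurred at this end as well.

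Between WT and *Pld6* KO the silent bodies hardly differed as a group. The median difference of WT minus *Pld6* KO over 541 genes was 0.0007. No body was called lower by at least 0.3 in the *Pld6* KO library (0% over all genes), and by any amount at an adjusted p under 0.05 by Fisher's exact test, 24 were lower (4.44% of silent and 6.21% of all genes) and 37 higher (6.84% and 6.14%). The largest decrease was that of *4930452N14Rik*, a lncRNA gene on chromosome 1 (154241521 to 154256906), with 0.950 (0.900 to 0.975) in WT, 0.654 (0.588 to 0.715) in *Pld6* KO but 0.157 (0.0901 to 0.260) in *Dnmt3l* KO (adjusted p = 3.34e-09 for WT against *Pld6* KO by Fisher's exact test). Its printed stretch overlaps a match to the L1Md_A amplicon of the study and shares 53 identical bases with the printed match of *4930548K13Rik* or its reverse complement. More than 5 kb from the match, the same body had 0.946 in WT and 0.832 in *Pld6* KO.

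*1700128F08Rik* had 0.867 in WT and 0.713 in *Pld6* KO, *1700104L18Rik* 0.925 and 0.785, *4933430M04Rik* 0.839 and 0.726, and *1700027I24Rik* 0.779 and 0.670. The first 3 passed Fisher's exact test between the libraries (adjusted p = 0.0263, 0.0145 and 1.89e-05), and *1700027I24Rik* did not (adjusted p = 0.182). In the other direction, chosen after their values were seen, *1700109G14Rik* had 0.602 and 0.763 and *1700057G04Rik* 0.515 and 0.667 (adjusted p = 0.000261 and 6.48e-06 by Fisher's exact test). Bodies thus differed by such amounts in both directions between these 2 libraries.

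L1Md_A is a young L1 family with a promoter of repeated monomers at its start. Its amplicon matched 19 regions in 14 silent bodies. Inside the matches the level was 0.949 (0.894 to 0.976) in WT, 0.231 (0.175 to 0.299) in *Pld6* KO, and only 0.0294 (0.0052 to 0.149) in *Dnmt3l* KO, over 118, 173 and 34 calls. Within 1 kb of them it was 0.850, 0.204 and 0.0860, and more than 5 kb away in the same bodies 0.8003, 0.787 and 0.225. The *Pld6* KO level was below that of WT in all 10 genes with calls in both libraries inside a match, and in 12 of 13 within 1 kb, the exception being *1700007B14Rik* with 0.929 over 14 calls in WT and 1 over 6. No minimum of calls was set for these counts, and some genes had very few, such as 3 and 2 inside the matches of *A830018L16Rik*. At *1700020G17Rik* the levels were 1 over 15 calls and 0.8 over 5, with overlapping intervals. At *4932441J04Rik* the matches had 0.900 in WT and 0.125 in *Pld6* KO over 20 and 24 calls, and at *4930474G06Rik*, with 4 regions, 1 and 0.214 over 19 and 14. *A930001A20Rik* had 0.857 and 0.543 over 7 and 35 calls.

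IAPLTR1_MM, the LTR of an intracisternal A particle, matched in 6 silent genes, where the level within 1 kb was 0.929, 0.777 and 0.191, and MT2-MERVL, the LTR of MERVL, matched in 8, with 0.755, 0.806 and 0.281. Inside the MT2-MERVL matches the level was 0.536 (0.358 to 0.705) over 28 calls in WT and 0.926 (0.766 to 0.979) over 27 in *Pld6* KO. The order was the reverse of L1Md_A and the intervals did not overlap, but the difference came from a single gene. *A230108P19Rik* held 23 of these calls in WT and 22 in *Pld6* KO, with levels of 0.435 and 0.909. *4931412M21* had a level of 1 in both libraries over 4 and 5 calls. RLTRETN_Mm, the LTR of an early transposon family, had 2 matches in a single silent gene, where the level within 1 kb was 1 (0.757 to 1) over 12 calls in WT and 0.3 (0.108 to 0.603) over 10 in *Pld6* KO. That gene, *A830018L16Rik*, also holds 2 regions matching L1Md_A and 2 matching IAPLTR1_MM. Matches of L1Md_A and IAPLTR1_MM share the bodies of *4930513D17Rik* and *4932441J04Rik* as well. WT and *Pld6* KO lay closer together around IAPLTR1_MM than around L1Md_A, though here too the intervals did not overlap. Of the 65 tiles of silent bodies in which *Pld6* KO was lower than WT by at least 0.3, 4 (6.15%) lay within 2 kb of an L1Md_A match, against 6 of all 3516 tiles (0.171%). Tiles higher by that amount in *Pld6* KO numbered 69, so that most of the large tile differences in either direction lay away from the L1Md_A matches. These tiles needed only 10 calls in each library and no test was run on them, so that counting error was not separated from their differences.

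**Figure D5:**
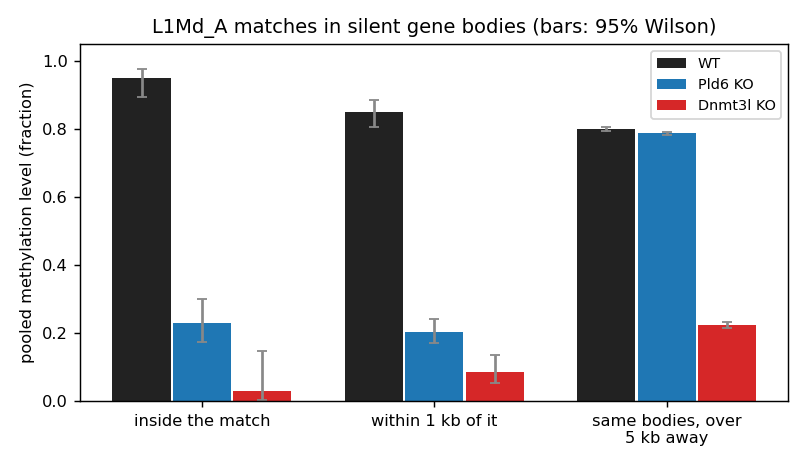
Pooled methylation level (fraction, bars from 0, with 95% Wilson intervals) of the 14 silent gene bodies with L1Md_A matches, inside the matches, within 1 kb of them and more than 5 kb away, in the 3 libraries. *Pld6* KO stands at 0.231 and 0.204 in and beside the matches and at 0.787 away from them, next to 0.8003 in WT.

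Gene families with a known tissue role are set here beside the medians of all silent bodies, which were 0.841, 0.841 and 0.293. The 9 *Adam* genes encode membrane-anchored metalloprotease-like proteins, many of which are found in testis and sperm, some of them in clusters of close paralogs, whose uniquely mapped reads can be few. Their body levels lay between 0.785 and 0.893 in WT, between 0.732 and 0.911 in *Pld6* KO, and between 0.0217 and 0.364 in *Dnmt3l* KO, and none of the 8 with enough flank calls was called above its flank in *Dnmt3l* KO, where 17.2% of the silent and 39.9% of all genes were. *Adam2*, which encodes the beta subunit of the sperm protein fertilin, had 0.865, 0.862 and 0.337, with a flank of 0.804, 0.822 and 0.333. *Adam34* had the lowest, with 0.893, 0.876 and 0.0217 (0.0038 to 0.113) and a flank of 0.180 in *Dnmt3l* KO, and *Adam29* had 0.785, 0.732 and 0.0755. *Adam18* (0.174 against a flank of 0.306) and *Adam34* were called lower than the flank in *Dnmt3l* KO, where 7.89% of the silent and 6.61% of all genes were.

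The 10 genes of acyl-CoA metabolism, mostly enzymes of liver and kidney, had medians of 0.872, 0.882 and 0.343. Of the 10, 4 were called higher than the flank in *Dnmt3l* KO, near the share over all genes (39.9%) and above that over silent genes (17.2%). These were *Acsm4* (0.345 against 0.191) and *Acsm1* (0.341 against 0.239), which encode medium-chain acyl-CoA synthetases, and *Acot3* (0.333 against 0.178) and *Acot5* (0.432 against 0.188), which encode acyl-CoA thioesterases and share most of their flank. *Acnat2*, an acyltransferase gene, was at the low end with 0.688, 0.710 and 0.110. Among the 5 ABC transporter genes, *Abca14* had 0.835, 0.850 and 0.202 and its neighbour *Abca15* 0.817, 0.834 and 0.228, both above low flanks of 0.0764 and 0.0230 in *Dnmt3l* KO. *Abcb11*, the bile salt export pump of the liver, had 0.877, 0.867 and 0.324, with a flank of 0.321 in *Dnmt3l* KO.

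The 6 other genes of liver and gut had a lower median in WT (0.668) than in *Pld6* KO (0.754), and 0.271 in *Dnmt3l* KO. *Abo*, the blood group glycosyltransferase gene, had 0.592, 0.717 and 0.262, and *Adh6a*, an alcohol dehydrogenase gene, had 0.627, 0.756 and 0.212. Of the 6, these 2 bodies were called lower than the flank in WT, where 13% of the silent and 10.2% of all genes were. The 3 arylacetamide deacetylase genes had 0.856 to 0.974 in WT and 0.160 to 0.262 in *Dnmt3l* KO. Of the 2 neuronal genes, *Adcy8*, which encodes a calcium-stimulated adenylyl cyclase, had 0.882, 0.849 and 0.380 over 223.26 kb. *Actl6b*, a subunit gene of the neuronal BAF complex, had 0.795, 0.820 and 0.395. Both were called higher than the flank in *Dnmt3l* KO, where 17.2% of the silent and 39.9% of all genes were. With only 2 genes, no share can be compared. *Acrv1*, which encodes an acrosomal protein, had 0.938, 0.887 and 0 (0 to 0.215) over 48, 62 and 14 calls, at the opposite end from *Ace3*.

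Silent genes with RIKEN names of 7 prefixes, such as 1700, that stand for testis cDNA libraries had medians of 0.842, 0.837 and 0.281 over 345 genes, and 155 genes with other RIKEN names had 0.838, 0.844 and 0.338. Of the 557 genes, 20 had an RPKM of at least 1 later, in WT leptotene/zygotene spermatocytes. The 19 of these with enough calls had medians of 0.841, 0.842 and 0.350, and 351 genes at an RPKM of 0 there had 0.843, 0.840 and 0.283. Of 18 of the former, 10, 7 and 8 were called higher than the flank. The shares were 32.5%, 29.2% and 17.2% over silent genes and 49.2%, 45.6% and 39.9% over all genes. lncRNA genes (0.842, 0.842 and 0.293) and protein-coding genes (0.841, 0.842 and 0.295) had almost the same median body levels. Their medians of body minus flank were 0.0425, 0.0440 and 0.0237 for lncRNA and 0.0745, 0.0635 and 0.0448 for protein-coding genes. Bodies of genes from 5 to 10 kb long had medians of 0.859, 0.855 and 0.3, and those of 100 kb or more 0.808, 0.803 and 0.217, with a median G+C content of 44.3% and 39.4%.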

How the data were processed

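Whole-genome bisulfite sequencing of FACS-purified P7 spermatogonia was analysed in 3 libraries, 1 per genotype. Per the labels and the study's methods, adaptors were tagged on after bisulfite conversion (PBAT), and the authors trimmed single-end reads and mapped them with Bismark (version not given in the sources used here) to mm10. The deposited files list, per CpG, 2 counts of calls (methylated, unmethylated) together with a level as a fraction, and the fraction matched the counts throughout. Nothing in the sources used here states that duplicate reads were removed. Levels were computed here from the counts.

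Coordinates and masked repeats were taken from GRCm38 with its RefSeq annotation, to which all 557 silent genes were matched by symbol. Starts in the gene table count from 0 and were shifted. Expression served only to choose and class genes. The table as read is shortened, and columns of the study's own comparisons were not used. Genes expressed at an RPKM of 1 or more served for comparison. In silent bodies, 16 genes had fewer than 10 calls in a library, and 50 genes in all had too few calls in body or flank. Most of those left out for the flank alone had calls in the body but no sequence outside annotated genes within 50 kb. The comparison with the flank thus leaves out silent genes that other genes surround.

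Fisher's exact tests (two-sided) were run per gene over all genes of the table with Benjamini-Hochberg adjustment in Python 3.11.15 with scipy 1.17.1. Wilson intervals (95%) cover counting error only. The calling step was tested on simulated data. The 8 retrotransposon amplicons of the study, with converted bases put back, were matched to silent bodies by blastn 2.17.0 at 90% identity over 90% of the amplicon. Tiles of 1 kb needed 10 calls in each library.

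Genes named in the text are, among silent genes with at least 50 calls in body and flank in each library, the 5 at either end of body minus flank in *Dnmt3l* KO, the 5 with the lowest WT level, the largest decrease in *Pld6* KO and the highest level in *Dnmt3l* KO, and in addition the symbol groups. Other named genes were chosen after their values were seen. A gene that this rule names is not reported here. The members and lists were chosen with earlier results of these data known. Alternatives changed the calls needed, site coverage, pooling, flank, body start, RPKM limit, overlapping genes, repeats and the calling rule.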

Additional observations from a re-analysis of the deposited data

How the results depend on the processing

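*Dnmt3l* KO lay far below WT and *Pld6* KO under all alternatives, and every median difference of body minus flank kept its sign. The order of WT and *Pld6* KO did not always hold. WT had the lower pooled body level in the main setting (0.792 against 0.801) and the higher one as a mean of site levels. For the median of body minus flank, WT passed below *Pld6* KO with at least 50 calls and without the 5 kb around genes. The pooled body level in WT was 0.7905 with at least 50 calls per region, 0.8035 as a mean of site levels, 0.7945 from 5 kb past the start, 0.7825 with an RPKM of exactly 0, 0.7948 without other genes and 0.7893 without masked repeats. In *Pld6* KO it was 0.7930 as a mean of site levels, 0.8025 from 5 kb, 0.7937 with an RPKM of 0 and 0.8074 without repeats. In *Dnmt3l* KO it was 0.3068, 0.2803 with an RPKM of 0, 0.2884 without other genes and 0.3050 without repeats.

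The median of body minus flank in WT was 0.0370 with 50 calls, 0.0501 as a mean of site levels, 0.0369 with a 20 kb and 0.0614 with a 100 kb flank, 0.0179 without the 5 kb around genes, 0.0511 with an RPKM of 0, 0.0567 without other genes and 0.0516 without repeats. In *Pld6* KO it was 0.0411 with 50 calls, 0.0289 and 0.0530 with 20 and 100 kb, 0.0182 without the 5 kb, 0.0441 with an RPKM of 0 and 0.0497 without repeats. In *Dnmt3l* KO it was 0.0223 with 50 calls, 0.0226 with 20 kb, 0.0129 without the 5 kb, 0.0233 from 5 kb past the start and 0.0166 with an RPKM of 0.

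Without the 5 kb around genes, 105 of 470 silent bodies were called higher than the flank in WT and 92 in *Pld6* KO. These were 22.3% and 19.6%, against 26.2% and 24.3% over all genes. With an RPKM of 0, which leaves 315 genes with a flank, the higher bodies numbered 95 in WT, 90 in *Pld6* KO but 42 in *Dnmt3l* KO. The shares over all genes do not depend on this limit and were 49.2%, 45.6% and 39.9%. In *Dnmt3l* KO, 25 of the 315 were lower than the flank (6.61% over all genes). There, 316 of 340 bodies were lower than WT by at least 0.3 (87.7% over all genes). A minimum difference of 0.2 left 80 of 507 bodies higher than the flank and 32 lower for WT. The counts of higher and lower bodies were then 64 and 23 for *Pld6* KO, but 36 and 7 for *Dnmt3l* KO. By the difference alone, 61 of 507 were lower for *Dnmt3l* KO. From 5 kb past the start, 1 of 475 bodies was called lower than WT by at least 0.3 in *Pld6* KO. Shares over all genes were not computed for a changed minimum difference or body start, so those counts stand without a background. Where an alternative changed the value, the cause was not tested. No paired analysis was possible because each genotype had 1 library, and for the same reason no replicate could be left out.

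Depth was lowest in *Dnmt3l* KO, at 0.926 calls per autosomal CpG site, and the counting error of single bodies was largest there. The expression classes rest on whole testes and on a part of the gene table, and neighbouring genes can share flank sequence.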

Other observations

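On the X chromosome, 19 of 21 silent genes of at least 5 kb had enough calls, and their bodies had 0.714 (0.698 to 0.730) in WT, 0.690 (0.676 to 0.704) in *Pld6* KO but 0.219 (0.199 to 0.241) in *Dnmt3l* KO. Their flanks had 0.738 (0.727 to 0.7495), 0.720 (0.710 to 0.730) and 0.191 (0.176 to 0.206). The body lay below the flank in *Pld6* KO, while the intervals of body and flank overlapped in WT and *Dnmt3l* KO. Autosomal silent genes under 5 kb, taken whole and including their starts, had 0.501, 0.558 and 0.189 over 196 genes.

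Methylated and unmethylated stretches can lie in the same silent body. *A930011G23Rik* held 5 tiles with a WT level under 0.2 and 6 tiles with a *Dnmt3l* KO level of at least 0.7, and *A630023A22Rik* held 10 tiles of the latter kind, the most of any silent gene. Tiles with a WT level under 0.2 were as many in *2700069I18Rik* (5) as in *2610100L16Rik* (5). *A930011G23Rik* and *2700069I18Rik* were chosen after their values were seen.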
